A study of Homo sapiens with 6 samples.

Results

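The genes described here encode the eukaryotic translation initiation factors and their regulators, as measured in AN3-CA cells, an established human endometrial cancer line. They were taken as every gene whose single symbol in the deposited profile table began with EIF and a digit, with EIF2AK2 left out, which gave 54 of the 19040 genes measured. Of these 54 genes, 50 encode initiation factors or proteins that act on them. The other 4, EIF2C1 to EIF2C4, are older symbols of the Argonaute genes AGO1 to AGO4, which act in RNA silencing and are caught by their spelling only, so counts are given with and without them. Each gene was read from its brightest single-symbol probe set, since 46 of the 54 genes had several, and all 54 entered the fits without a filter on dim genes. EIF3C and EIF4EBP3 were listed only on probe sets that also carry another gene's symbol, and eIF2D was listed under its older symbol LGTN, so these 3 genes are not among the 54.

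The cells were grown for 24 h and then held for 18 h in serum-free medium under 3 conditions. The DMSO group received the vehicle and no growth factor. The aFGF group received the vehicle with 10 ng/mL of acidic fibroblast growth factor (FGF1), which activates FGF receptors. The AZD4547 group received 300 nM AZD4547, an inhibitor of the FGF receptor kinases, together with the same dose of aFGF. Each group held 2 arrays that the labels call biological replicates, 6 in all, and no group received AZD4547 without aFGF. All 3 groups shared the serum-free medium and the single cell line, so the values describe that line only.

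Initiation places a ribosome on the start codon of an mRNA. The GTPase eIF2 carries the initiator tRNA to the small ribosomal subunit, where eIF1, eIF1A, eIF3 and eIF5 also bind. The cap-binding protein eIF4E, the helicase eIF4A and the scaffold eIF4G form eIF4F and bring the subunit to the capped end of the mRNA, eIF2B recharges eIF2 with GTP, and eIF5B joins the large subunit. Growth factor signalling through mTORC1 frees eIF4E from the 4E-binding proteins, and stress kinases block eIF2 by phosphorylating its alpha subunit. Both of these controls act on proteins, which the arrays did not measure.

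Levels are log2 of the deposited array intensity, and a difference is a difference of mean log2 levels between groups of 2 arrays. Levels of different genes come from different probes and were not compared. A gene was called where limma's two-sided p, adjusted by Benjamini-Hochberg over all 19040 genes, was under 0.05. The array medians lay between 2.84 and 2.89. EIF1AY, EIF4E1B and EIF5AL1 lay below all of them and were not called in any comparison, and the other 51 genes lay above. The median standard error of a difference was 0.0667 over the 54 genes and 0.117 over all genes. The median SD between the 2 arrays of a group was 0.0725 over the 54 genes with DMSO, 0.0245 with aFGF and 0.0323 with AZD4547. Over these genes the DMSO arrays were therefore the least alike.

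The cell line's label was set against marker genes. Of 8 endometrial markers, ESR1, EMX2, HOXA10, HOXA11 and MSX1 read above the array medians on every array, while PAX8, PGR and SOX17 did not. Of 5 epithelial markers only KRT18 did, and EPCAM, CDH1, KRT8 and KRT19 did not. Of the mesenchymal genes VIM and CDH2, listed with them, VIM did. None of 5 endothelial and none of 6 leukocyte markers did. Of 6 fibroblast markers only COL1A2 did. The summed intensity of the fibroblast markers ranged from 728 to 825 with DMSO, from 878 to 881 with aFGF and from 897 to 921 with AZD4547. That of the epithelial markers with VIM and CDH2 ranged from 4600 to 4680, 4980 to 5040 and 4340 to 4380 in the same order, and that of the endometrial markers from 246 to 263, 204 to 215 and 267 to 294. The groups did not overlap in any of these 3 sums: the aFGF arrays were highest and the AZD4547 arrays lowest in the epithelial list, and the reverse held in the endometrial list. The sums are of linear intensity, so the brightest genes carry them. VIM, at a mean log2 level of 12.18 against 4.27 for KRT18, makes up nearly all of the epithelial sum. COL1A2, at 9.70 against 3.15 for COL3A1, makes up nearly all of the fibroblast sum. The order of the groups in the epithelial sum is therefore that of VIM, a mesenchymal gene. The part of these markers in the results below was not tested.

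**Figure D1:**
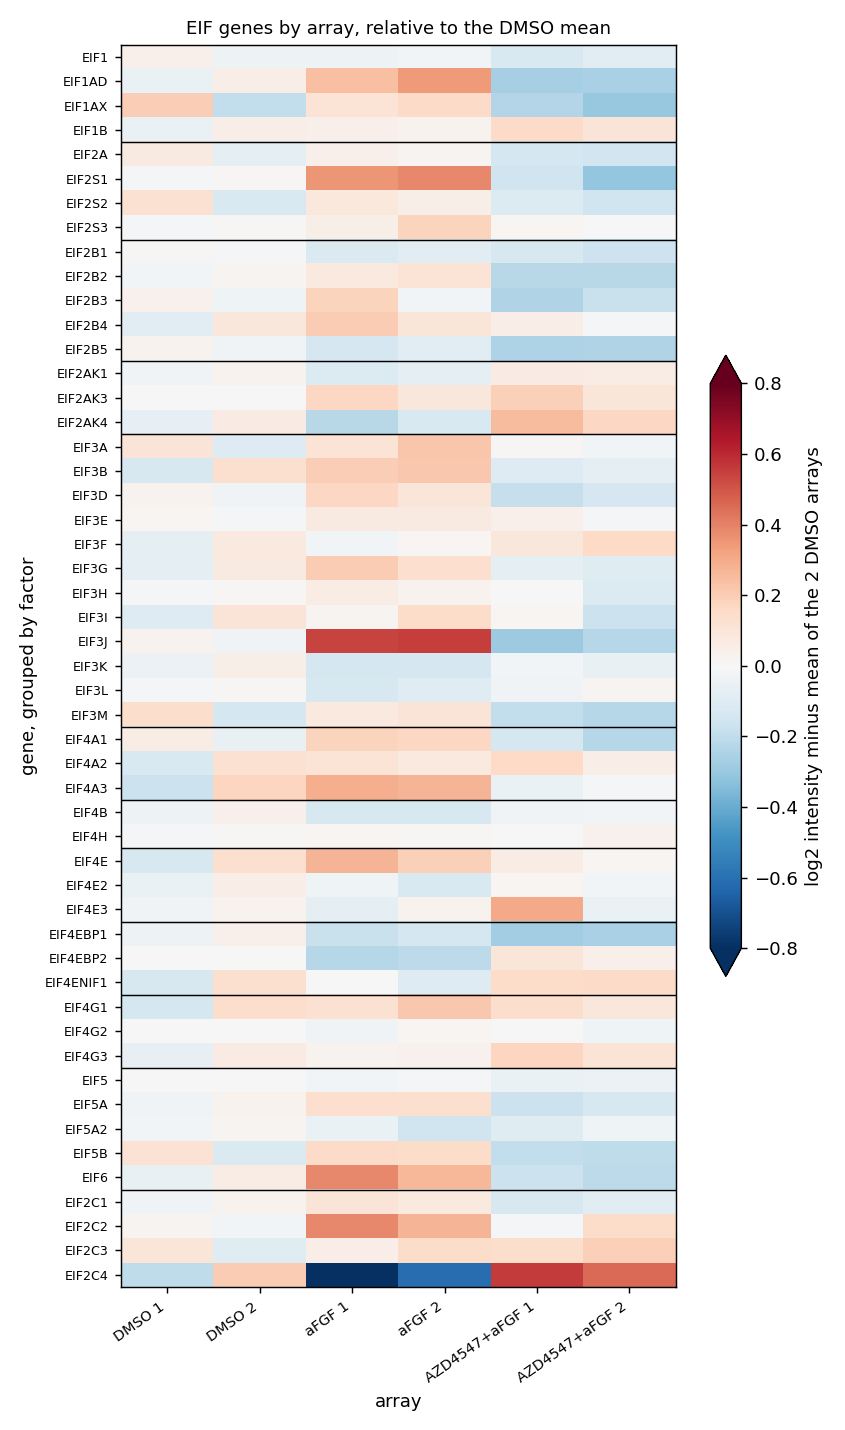
Log2 intensity of 51 EIF genes on each of the 6 arrays (columns), as the difference from the gene's mean over the 2 DMSO arrays. Genes are grouped by factor, the 3 genes below the array medians are left out, and red is higher and blue lower. EIF3J, EIF2S1, EIF6 and EIF1AD are red on both aFGF arrays and blue on both AZD4547 arrays, while EIF2C4 has the reverse order.

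The promoters of several of these genes hold the E-box CACGTG, the palindrome that MYC with its partner MAX and other factors of that class can bind, and eIF4E is a textbook MYC target. The 250 bases upstream of the annotated start were searched for these letters in RefSeq promoters on GRCh38.p14, where 45 of the 54 genes matched. CACGTG reads the same on both strands and was the only motif searched, so it overlapped no other. It occurred in 10 of the 45 promoters (22.2%), in 7.82% of 14809 promoters of genes on the arrays and in 6.49% of all 27305 promoters in the table. The stretches below show it in 2 genes that fell with AZD4547, EIF2B3 at chr1:44986739-44986804 (minus strand) and EIF4A3 at chr17:80147214-80147279 (minus strand). They also show it in 2 eIF4F genes that were not called, with 2 copies each: EIF4E at chr4:98929323-98929383 and chr4:98929170-98929235 (minus strand) and EIF4G1 at chr3:184314432-184314497 and chr3:184314509-184314574 (plus strand). Capitals mark the motif, and every base printed lies upstream of the start.
EIF2B3: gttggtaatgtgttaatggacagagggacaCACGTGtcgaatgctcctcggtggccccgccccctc
EIF4A3: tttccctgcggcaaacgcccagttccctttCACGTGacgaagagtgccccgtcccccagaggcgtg
EIF4E, distal copy: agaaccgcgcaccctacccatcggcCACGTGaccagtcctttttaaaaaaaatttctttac
EIF4E, proximal copy: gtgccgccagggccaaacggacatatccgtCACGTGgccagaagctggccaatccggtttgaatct
EIF4G1, distal copy: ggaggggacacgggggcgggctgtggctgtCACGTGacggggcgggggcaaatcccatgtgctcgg
EIF4G1, proximal copy: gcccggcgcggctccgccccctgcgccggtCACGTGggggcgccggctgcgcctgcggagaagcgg

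Against the calls described below for AZD4547 with aFGF over aFGF, the motif was found in 2 of 14 matched promoters of genes called lower (14.3%), in 8 of 28 promoters of genes not called (28.6%) and in 0 of 3 promoters of genes called higher. The stretches printed are a selection. The genes with the motif that were not printed are EIF1B, EIF3F, EIF3K, EIF4B, EIF4H and EIF5A2. None of these was called in this comparison, and their differences were all positive, from 0.006 for EIF4H to 0.13 for EIF3F. Those of the printed genes were all negative, from -0.31 for EIF4A3 to -0.05 for EIF4G1. The promoters of EIF3J, EIF2S1, EIF6 and EIF1AD, whose values changed most among the initiation factors, did not hold these letters in the 250 bases searched. A match is a description of the sequence, and binding was not measured.

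The first comparison asked what aFGF changed at the level of RNA. aFGF raised 6 of the 54 genes and lowered 2. The genes that rose were EIF3J, a loosely held subunit of eIF3, EIF2S1, the alpha subunit of eIF2, EIF6, which keeps the large ribosomal subunit from joining too early, EIF1AD, EIF4A1 and the Argonaute EIF2C2. The genes that fell were EIF4EBP2, which encodes the eIF4E inhibitor 4E-BP2, and the Argonaute EIF2C4. The called share, 14.8%, was close to the 15.6% of all genes that were called, so the count is no result about these genes. By direction, 11.1% were called higher against 5.92% of all genes, and 3.7% lower against 9.72% of all genes. The median difference was 0.07 over the 54 genes and -0.01 over all genes. Without the Argonautes, 5 of 50 were called higher and 1 lower, and the median was 0.07. The arrays of both groups did not overlap for 35 of the 54 genes (64.8%), where 50.5% of all genes did not.

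The number of calls rested on single arrays. It was 15 without DMSO replicate 1, 15 without DMSO replicate 2, 2 without aFGF replicate 1 and 4 without aFGF replicate 2, and only EIF3J and EIF2S1 kept the call in each of the alternatives run. The other 6 calls were all lost without aFGF replicate 1, that of EIF2C4 only there among the alternatives run, and the median difference was 0.03 without DMSO replicate 1. In bulk RNA of this kind, fewer cells that use a gene and less of its RNA per cell cannot be told apart.

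The second comparison asked what the inhibitor changed in the presence of aFGF. Relative to aFGF alone, AZD4547 lowered 16 of the 54 genes and raised 4. The 16 were 5 of 12 eIF3 subunits, 2 of 5 eIF2B subunits, the eIF4A helicase genes EIF4A1 and EIF4A3, EIF2S1, EIF1AX, EIF1AD, EIF5A, EIF5B, EIF6 and the Argonaute EIF2C2. The genes that rose were the eIF2 kinase genes EIF2AK4 and EIF2AK1, EIF4EBP2 and the Argonaute EIF2C4. All but EIF2C4 changed less than 2-fold. The called share was 37% against 25.7% of all genes. The share called lower was 29.6% against 10.1% of all genes, and the share called higher was 7.41% against 15.6% of all genes. The median difference was -0.10 over the 54 genes and -0.02 over all genes. Without the Argonautes, 15 of 50 were called lower and 3 higher. The arrays of both groups did not overlap for 44 of the 54 genes (81.5%), against 60.6% of all genes.

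Here too the number of calls depended on single arrays, being 10 without aFGF replicate 1, 12 without aFGF replicate 2, 12 without AZD4547 replicate 1 and 13 without AZD4547 replicate 2. The calls of EIF3J, EIF2S1, EIF1AD, EIF6, EIF4A1, EIF2B2, EIF3D, EIF4EBP2 and EIF2C4 were kept in each of the alternatives run. That of EIF5A was lost only without probe sets ending in _x_at, which leaves it a dim one, and the other 10 were lost without aFGF replicate 1: EIF1AX, EIF2AK1, EIF2AK4, EIF2B3, EIF2C2, EIF3B, EIF3G, EIF3M, EIF4A3 and EIF5B.

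The third comparison set AZD4547 with aFGF against DMSO, which differ in both agents. Of the 54 genes 4 were called, all lower: EIF4EBP1, which encodes the eIF4E inhibitor 4E-BP1, EIF3J, EIF2S1 and EIF2B2. The called share was 7.41% against 4.68% of all genes, of which 2.41% were lower and 2.28% higher. The median difference was -0.05 over the 54 genes and -0.01 over all genes. The arrays of both groups did not overlap for 32 genes (59.3%), against 44.8% of all genes. The count was 15 without DMSO replicate 2, 5 without DMSO replicate 1 and 0 in limma's fits without any single array of the other groups, in which 10 to 16 genes had an unadjusted p under 0.05. The median difference was 0.003 without DMSO replicate 2.

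The 54 genes are brighter than most, and brighter genes were called more often. Among the 9520 genes whose mean level was above the median over genes, 51 were EIF genes. Tested among these only, 25.5% of the 51 were called for aFGF over DMSO against 34.3% of the brighter genes. For AZD4547 with aFGF over aFGF these shares were 45.1% and 50.8%, so neither called share exceeded that of the brighter genes. For AZD4547 with aFGF over DMSO they were 17.6% and 13.8%, with 15.7% lower against 6.67% of the brighter genes and 1.96% higher against 7.1% of the brighter genes. By direction, in the inhibitor comparison 37.3% of the 51 were called lower against 20.2% of the brighter genes, and 7.84% higher against 30.7% of the brighter genes. For aFGF over DMSO, 19.6% were called higher against 13.2% of the brighter genes, and 5.88% lower against 21.1% of the brighter genes. The differences between these shares were not tested. The first and second comparisons share the aFGF arrays, and the third shares arrays with both, so their values are set side by side below and are not independent of each other.

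**Figure D2:**
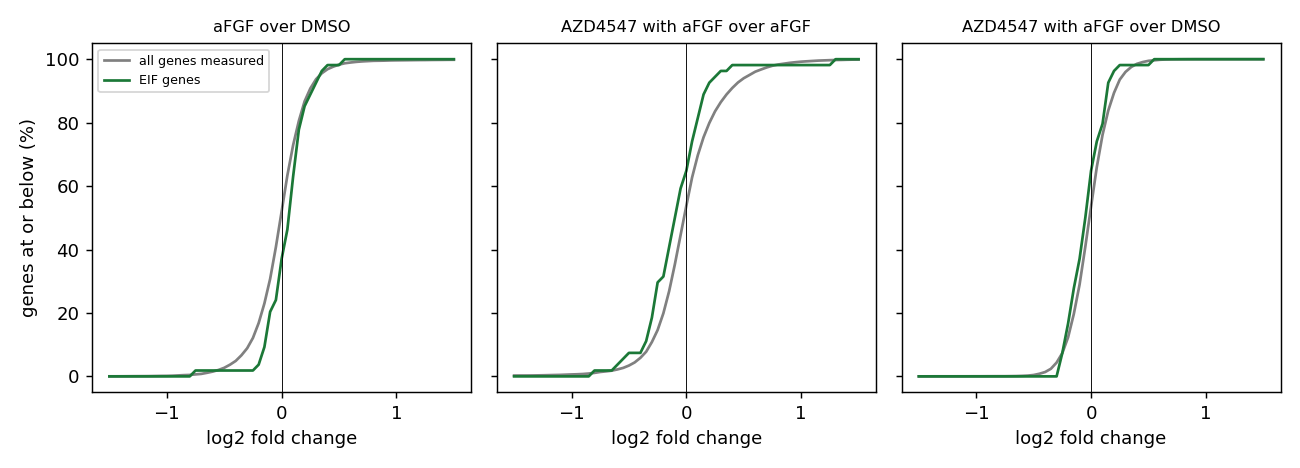
Share of genes (percent) at or below each log2 difference, for the 54 EIF genes (green) and all 19040 genes (grey), in 1 panel per comparison. At 0 the green line stands at 37.0% against 52.0% for aFGF over DMSO, and at 64.8% against 53.8% for AZD4547 with aFGF over aFGF.

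**Figure D3:**
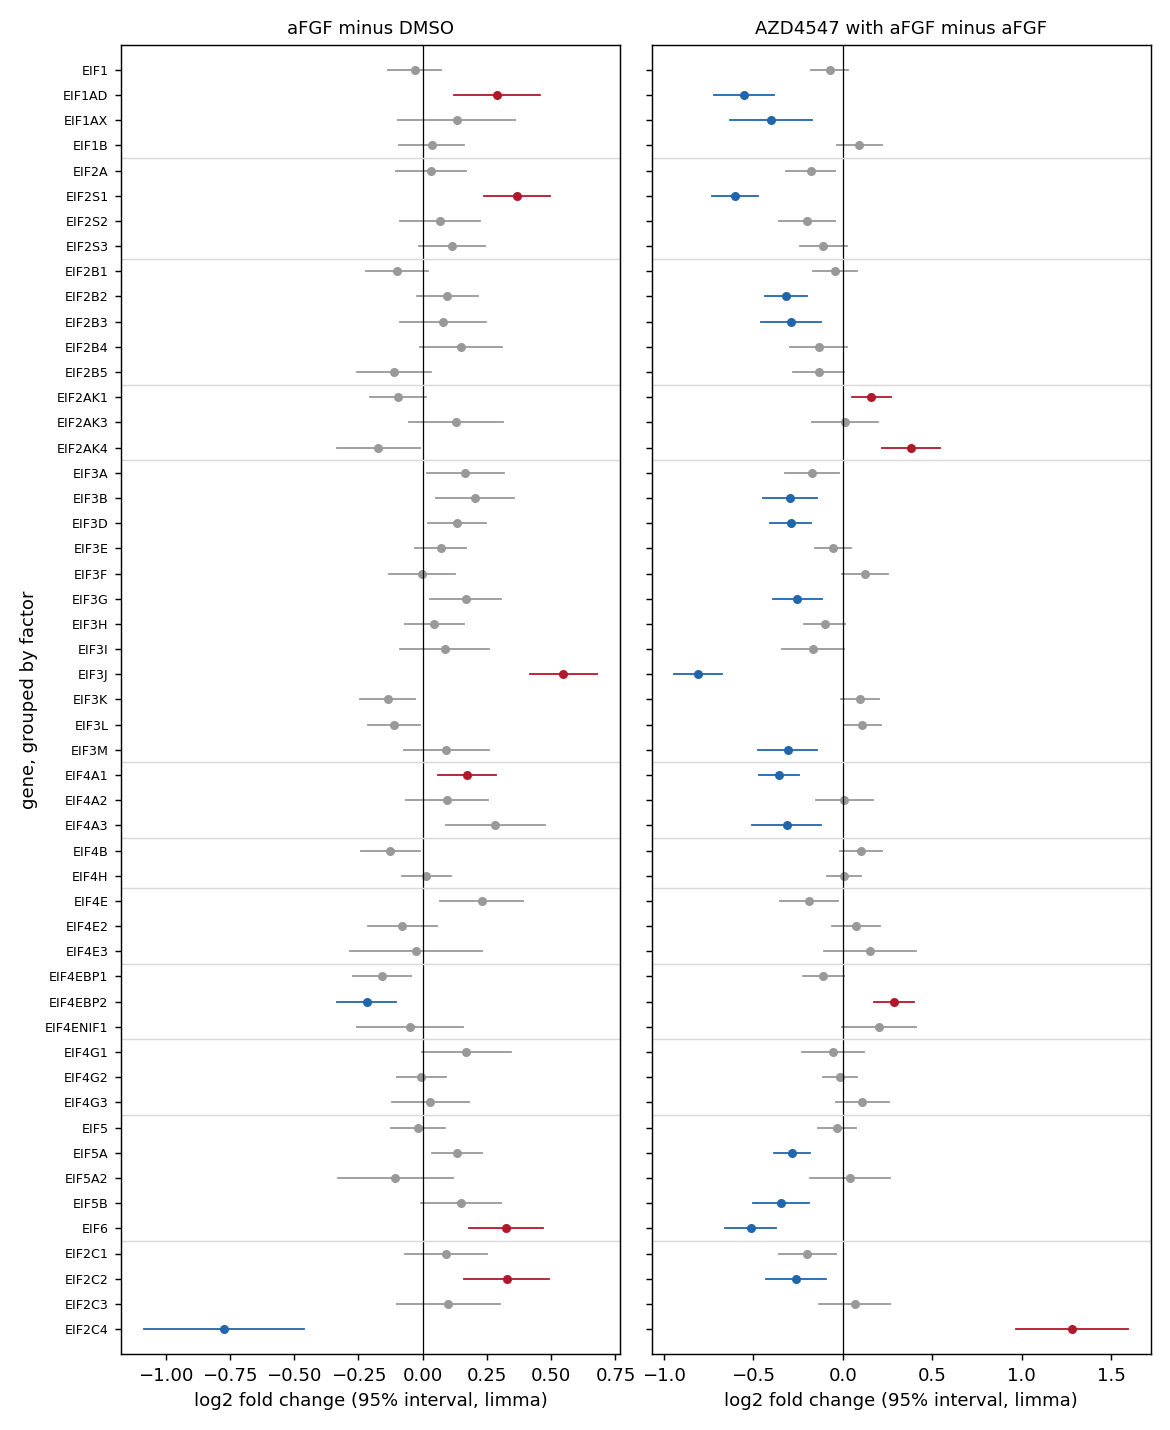
Log2 difference of each of 51 EIF genes with limma's 95% interval, for aFGF minus DMSO (left) and AZD4547 with aFGF minus aFGF (right), grouped by factor. Red marks genes called higher, blue genes called lower and grey genes not called. The panels share the aFGF arrays, and their horizontal axes differ in range.

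Of the subunits of eIF3, which holds the small ribosomal subunit ready and bridges it to the mRNA complex, EIF3J changed most. EIF3J (chr15q21.1) read 6.37 and 6.31 with DMSO, 6.89 and 6.90 with aFGF and 6.05 and 6.11 with AZD4547. The aFGF arrays were highest and the AZD4547 arrays lowest, and no groups overlapped. With aFGF EIF3J rose by 0.55 (SE 0.06, 1.46-fold, adjusted p 0.000118, limma). With AZD4547 it changed by -0.81 relative to aFGF (SE 0.06, 1.75-fold, adjusted p 2.52e-06) and by -0.26 relative to DMSO (SE 0.06, adjusted p 0.0325). Its second probe set gave 0.51 and -0.83 in the first and second comparison. In the authors' deposited table the ratio of EIF3J for aFGF over DMSO was 1.461 with a p-value of 0.006053, and for AZD4547 with aFGF over DMSO 0.8345 with a p-value of 0.04305. Not all genes called here had such p-values in that table. For aFGF over DMSO they were 0.002692 for EIF2S1, 0.002591 for EIF4EBP2, 0.03448 for EIF1AD and 0.04642 for EIF2C2. They were 0.0575 for EIF6, 0.09688 for EIF4A1 and 0.101 for EIF2C4. For AZD4547 with aFGF over DMSO they were 0.01128 for EIF2B2, 0.02366 for EIF4EBP1 and 0.08913 for EIF2S1.

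Another 4 eIF3 subunits fell with AZD4547 relative to aFGF. EIF3M, of the structural core, read 9.23 and 8.94 with DMSO, 9.16 and 9.19 with aFGF and 8.88 and 8.85 with AZD4547, where the DMSO arrays enclosed the aFGF arrays and lay above the AZD4547 arrays. Its difference was -0.31 (SE 0.08, adjusted p 0.01). EIF3B, a scaffold subunit, read 9.26 and 9.52, 9.59 and 9.60 and 9.29 and 9.31 in the same order of groups, with a difference of -0.29 (SE 0.07, adjusted p 0.00782). The lower DMSO array lay below the AZD4547 arrays, and the aFGF arrays were the highest. EIF3B had 8 probe sets, and 5 besides the one used were called lower. EIF3D, which can itself bind the mRNA cap, read 8.38 and 8.33, 8.52 and 8.46 and 8.17 and 8.22, and no groups overlapped. Its difference was -0.29 (SE 0.05, adjusted p 0.00127). EIF3G, an RNA-binding subunit, differed by -0.25 (SE 0.06, adjusted p 0.0102).

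The other 7 eIF3 subunits were not called in the inhibitor comparison. Their differences were -0.17 for EIF3A, -0.05 for EIF3E, 0.13 for EIF3F, -0.10 for EIF3H, -0.16 for EIF3I, 0.10 for EIF3K and 0.11 for EIF3L. The 12 subunits measured therefore did not share one direction, with 9 negative and 3 positive differences and a median of -0.17. With aFGF relative to DMSO only EIF3J of the 12 was called, while EIF3B had a difference of 0.20 (adjusted p 0.0737) and EIF3K one of -0.14 (adjusted p 0.0896).

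Of the eIF2 subunits, EIF2S1 was the one called. Its product, eIF2 alpha, carries the serine that stress kinases phosphorylate. EIF2S1 (chr14q23.3) read 7.86 and 7.88 with DMSO, 8.23 and 8.25 with aFGF and 7.71 and 7.56 with AZD4547. No groups overlapped, with the aFGF arrays highest and the AZD4547 arrays lowest. EIF2S1 rose by 0.37 with aFGF (SE 0.06, 1.29-fold, adjusted p 0.00135). With AZD4547 the difference was -0.60 relative to aFGF (SE 0.06, 1.52-fold, adjusted p 1.84e-05) and -0.23 relative to DMSO (SE 0.06, adjusted p 0.0467). The probe set used ends in _x_at, which marks probes that may also pick up other transcripts, and the next brightest, without that ending, gave 0.33, -0.69 and -0.36 in the 3 comparisons. The other 3 probe sets, all above the array medians, were not called in any comparison when all probe sets were tested. Their differences for AZD4547 over aFGF were -0.21, -0.09 and -0.29 (adjusted p 0.0557, 0.588 and 0.0795). For AZD4547 with aFGF over DMSO they were -0.12, 0.17 and 0.016, so that 2 of the 3 had the opposite sign to the probe set used.

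EIF2S2 and EIF2S3, the beta and gamma subunits, were not called on the probe sets used. When all probe sets were tested, a dimmer one of EIF2S2 was called lower for AZD4547 with aFGF over DMSO (-0.53, adjusted p 0.0414). In the inhibitor comparison EIF2S2 differed by -0.20 (95% interval -0.36 to -0.04, adjusted p 0.0601) and EIF2S3 by -0.11 (95% interval -0.24 to 0.02, adjusted p 0.233). EIF2A, a separate protein that can also bind initiator tRNA, differed by -0.18 (adjusted p 0.0581).

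The eIF2B complex exchanges GDP for GTP on eIF2, with EIF2B3 and EIF2B5 encoding the catalytic subunits and EIF2B1, EIF2B2 and EIF2B4 the regulatory ones. EIF2B2 (chr14q24.3) read 7.18 and 7.22 with DMSO, 7.28 and 7.31 with aFGF and 6.98 and 6.98 with AZD4547. The AZD4547 arrays lay below both other groups. EIF2B2 differed by -0.32 relative to aFGF (SE 0.05, 1.25-fold, adjusted p 0.000964) and by -0.22 relative to DMSO (SE 0.05, adjusted p 0.0415). EIF2B3 read 6.12 and 6.06, 6.27 and 6.07 and 5.85 and 5.91 with DMSO, aFGF and AZD4547, and differed by -0.29 relative to aFGF (SE 0.08, adjusted p 0.0152). The AZD4547 arrays were again the lowest of the 6. EIF2B1, EIF2B4 and EIF2B5 were not called, with differences of -0.04, -0.13 and -0.13, so all 5 differences were negative and 2 passed the test. On the probe sets used, none of the 5 was called with aFGF relative to DMSO. EIF2B2's other probe set, of similar brightness, was called higher there when all probe sets were tested (0.23, adjusted p 0.0489). It was also called lower for AZD4547 over aFGF (-0.37, adjusted p 0.00178), and its difference for AZD4547 with aFGF over DMSO was -0.14 (adjusted p 0.326).

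Of 3 kinases that phosphorylate eIF2 alpha, 2 rose in the inhibitor comparison. EIF2AK4, which encodes GCN2, the sensor of uncharged tRNA, read 5.76 and 5.89 with DMSO, 5.60 and 5.70 with aFGF and 6.08 and 5.99 with AZD4547. The aFGF arrays were lowest and the AZD4547 arrays highest. EIF2AK4 rose by 0.38 relative to aFGF (SE 0.07, 1.3-fold, adjusted p 0.00216). This value rests on a probe set ending in _x_at. The gene's only other probe set lay below the array medians and gave -0.03.

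EIF2AK1, which encodes HRI, the haem-regulated kinase, read 8.01 and 8.07 with DMSO, 7.93 and 7.96 with aFGF and 8.11 and 8.10 with AZD4547. Both aFGF arrays were again the lowest. EIF2AK1 rose by 0.16 relative to aFGF (SE 0.05, 1.12-fold, adjusted p 0.0348), and with each array centred on its median the adjusted p was 0.0972. When all probe sets were tested, the one used had an adjusted p of 0.0555 and 1 of the gene's 7 others was called higher in this comparison. For aFGF over DMSO 4 of the 7 others were called lower, with differences from -0.40 to -0.24. EIF2AK3, which encodes PERK, the kinase of endoplasmic reticulum stress, differed by 0.01 (95% interval -0.17 to 0.20) and was not called.

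Among the eIF1 and eIF1A genes, EIF1AD and EIF1AX fell with AZD4547. EIF1AX encodes eIF1A, which keeps the scanning complex open. EIF1AX read 6.21 and 5.82 with DMSO, 6.13 and 6.17 with aFGF and 5.79 and 5.71 with AZD4547, a difference of -0.40 relative to aFGF (SE 0.10, 1.32-fold, adjusted p 0.0138). The DMSO arrays lay far apart (SD 0.28) and enclosed the aFGF arrays.

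EIF1AD, which encodes a protein with an eIF1A-like domain, read 5.17 and 5.27 with DMSO, 5.46 and 5.56 with aFGF and 4.95 and 4.96 with AZD4547. No groups overlapped. EIF1AD rose by 0.29 with aFGF (SE 0.08, adjusted p 0.0232) and differed by -0.55 with AZD4547 relative to aFGF (SE 0.08, 1.47-fold, adjusted p 0.000221). Its second probe set, of similar brightness, gave 0.12 and -0.05 and was not called, so the gene's probe sets disagree. EIF1 and EIF1B, which encode eIF1 and its paralog, differed by -0.07 and 0.09 in the inhibitor comparison and were not called.

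**Figure D4:**
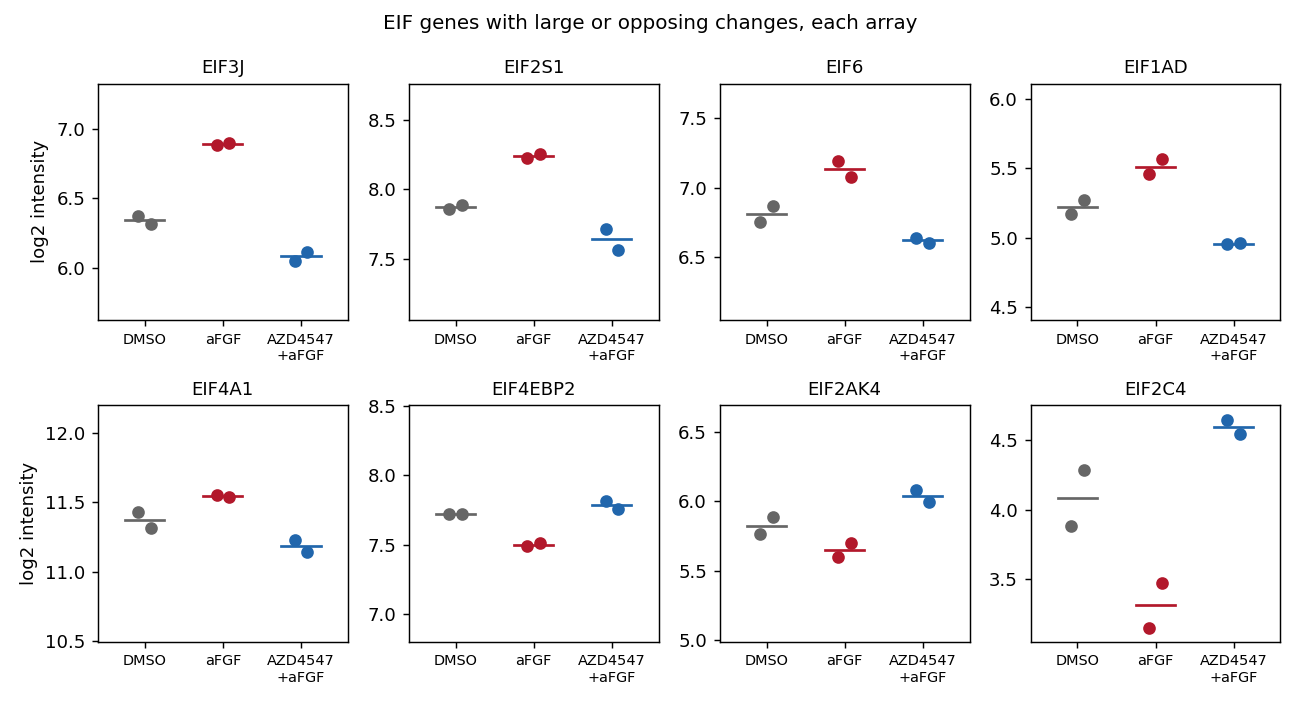
Log2 intensity of 8 EIF genes on each array (points) with the mean of each group of 2 (line). Each panel spans the same range of log2 units at its own level. In EIF3J, EIF2S1, EIF6, EIF1AD and EIF4A1 the aFGF arrays are highest and the AZD4547 arrays lowest, and in EIF4EBP2, EIF2AK4 and EIF2C4 the aFGF arrays are lowest and the AZD4547 arrays highest.

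The helicase genes of the eIF4A family differed among themselves. EIF4A1, the main eIF4A of eIF4F, read 11.43 and 11.31 with DMSO, 11.55 and 11.53 with aFGF and 11.23 and 11.14 with AZD4547, and no groups overlapped. EIF4A1 rose by 0.17 with aFGF (SE 0.05, 1.13-fold, adjusted p 0.0413), a call lost in 10 of 17 alternatives. With AZD4547 it differed by -0.36 relative to aFGF (SE 0.05, 1.28-fold, adjusted p 0.000305), and 5 other probe sets of the gene were called lower as well. Relative to DMSO its difference with AZD4547 was -0.18 (SE 0.05, adjusted p 0.0697) and was not called. When all probe sets were tested, 2 others of the gene were called lower there, at -0.39 (adjusted p 0.0196) and -0.49 (adjusted p 0.00691), and the rest were not called.

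EIF4A3, a component of the exon junction complex, read 7.81 and 8.15 with DMSO, 8.27 and 8.25 with aFGF and 7.93 and 7.97 with AZD4547. The AZD4547 arrays lay between the DMSO arrays and below both aFGF arrays. EIF4A3 differed by -0.31 relative to aFGF (SE 0.09, 1.24-fold, adjusted p 0.0201), and its difference of 0.28 with aFGF relative to DMSO had an adjusted p of 0.0505. EIF4A2, the paralog of EIF4A1, differed by 0.01 in the inhibitor comparison (95% interval -0.15 to 0.17, adjusted p 0.948). The eIF4A cofactor genes EIF4B and EIF4H differed by 0.10 and 0.01 and were not called. When all probe sets were tested, a dimmer one of EIF4H was called higher for aFGF over DMSO (0.287, adjusted p 0.0377, limma).

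No gene of the cap-binding eIF4E family and none of the eIF4G scaffolds was called in any of the 3 comparisons on the probe sets used. EIF4E read 8.01 and 8.26 with DMSO, 8.40 and 8.32 with aFGF and 8.19 and 8.15 with AZD4547. Both aFGF arrays lay above the rest, and the DMSO arrays enclosed the AZD4547 arrays. Its difference with aFGF was 0.23 (SE 0.07, adjusted p 0.0584) and with AZD4547 relative to aFGF -0.19 (SE 0.07, adjusted p 0.0873). In a fit of all probe sets, 2 dimmer EIF4E probe sets were called lower in the inhibitor comparison, at -0.32 (adjusted p 0.004) and -0.41 (adjusted p 0.015).

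EIF4E2, which encodes a cap-binding repressor, and EIF4E3 differed by 0.08 (95% interval -0.06 to 0.21) and 0.15 (95% interval -0.10 to 0.41) with AZD4547 relative to aFGF. EIF4G1 read 8.12 and 8.40 with DMSO, 8.38 and 8.48 with aFGF and 8.40 and 8.35 with AZD4547. The groups overlapped, and the difference with AZD4547 relative to aFGF was -0.05 (95% interval -0.23 to 0.12). EIF4G3, its paralog, and EIF4G2, a relative that lacks the eIF4E-binding site, differed by 0.11 and -0.01.

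The genes of the eIF4E inhibitors 4E-BP1 and 4E-BP2 were called in different comparisons on the probe sets used, which for EIF4EBP1 did not hold on another probe set. EIF4EBP2 (chr10q21-q22) read 7.72 and 7.72 with DMSO, 7.49 and 7.51 with aFGF and 7.81 and 7.76 with AZD4547. The aFGF arrays were the lowest, and no groups overlapped. EIF4EBP2 fell by 0.22 with aFGF (SE 0.05, 1.16-fold, adjusted p 0.0136) and rose by 0.29 with AZD4547 relative to aFGF (SE 0.05, 1.22-fold, adjusted p 0.00142). Each of its 4 other probe sets was also called higher in the inhibitor comparison. Relative to DMSO its difference with AZD4547 was 0.07 (95% interval -0.05 to 0.18).

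EIF4EBP1 read 8.21 and 8.29 with DMSO, 8.07 and 8.11 with aFGF and 7.97 and 7.99 with AZD4547. The DMSO arrays were highest and the AZD4547 arrays lowest. EIF4EBP1 fell by 0.27 with AZD4547 and aFGF relative to DMSO (SE 0.05, 1.2-fold, adjusted p 0.0163), with -0.16 for aFGF over DMSO (adjusted p 0.0631) and -0.11 for AZD4547 over aFGF (adjusted p 0.17). The next brightest of its 3 probe sets was called lower in all 3 comparisons when all probe sets were tested, with differences of -0.22 for aFGF over DMSO (adjusted p 0.0231), -0.18 for AZD4547 over aFGF (adjusted p 0.0382) and -0.41 for AZD4547 with aFGF over DMSO (adjusted p 0.00464). The third was not called in any of them. EIF4ENIF1, which encodes the eIF4E transporter, differed by 0.20 in the inhibitor comparison (adjusted p 0.156).

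Of the genes that act at subunit joining and after it, EIF6, EIF5B and EIF5A fell with AZD4547 relative to aFGF. EIF6 (chr20q12) read 6.75 and 6.87 with DMSO, 7.19 and 7.07 with aFGF and 6.64 and 6.60 with AZD4547, and no groups overlapped. EIF6 rose by 0.32 with aFGF (SE 0.07, 1.25-fold, adjusted p 0.00558) and differed by -0.51 with AZD4547 relative to aFGF (SE 0.07, 1.43-fold, adjusted p 0.000126). The probe set used ends in _x_at, and the gene's other probe set gave 0.33 and -0.53 in these 2 comparisons.

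EIF5B, the GTPase of subunit joining, read 7.65 and 7.42 with DMSO, 7.68 and 7.68 with aFGF and 7.34 and 7.33 with AZD4547. The AZD4547 arrays were the lowest, and EIF5B differed by -0.35 relative to aFGF (SE 0.07, 1.27-fold, adjusted p 0.0033). With aFGF over DMSO its difference was 0.15 (adjusted p 0.214, limma) and was not called. When all probe sets were tested, a dimmer one of EIF5B was called higher there (0.485, adjusted p 0.00644, limma). EIF5A, whose hypusine-bearing product helps ribosomes through stalling sequences and termination, read 10.34 and 10.39, 10.50 and 10.50 and 10.19 and 10.24 in the same order of groups. No groups overlapped, and the difference with AZD4547 relative to aFGF was -0.28 (SE 0.04, 1.22-fold, adjusted p 0.000605). The EIF5A probe set used ends in _x_at, and 3 probe sets listed for both EIF5A and EIF5AL1 differed by -0.28 to -0.32. EIF5, which encodes the GTPase activator of eIF2, and EIF5A2, the paralog of EIF5A, differed by -0.03 (95% interval -0.14 to 0.07) and 0.04 (95% interval -0.18 to 0.27) and were not called. When all probe sets were tested, the dimmest of EIF5's 7, near the array medians, was called lower in this comparison (-0.51, adjusted p 0.0101). The others of EIF5 were not called.

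The Argonaute genes split. EIF2C4 (AGO4) read 3.89 and 4.29 with DMSO, 3.15 and 3.48 with aFGF and 4.65 and 4.54 with AZD4547. The aFGF arrays were lowest and the AZD4547 arrays highest, with no overlap. EIF2C4 fell by 0.77 with aFGF (SE 0.14, 1.71-fold, adjusted p 0.00323) and rose by 1.28 with AZD4547 relative to aFGF (SE 0.14, 2.43-fold, adjusted p 4.83e-05). Its 3 other probe sets lay below the array medians and were not called, and without aFGF replicate 1 the adjusted p for aFGF over DMSO was 0.0731.

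EIF2C2 (AGO2), the Argonaute that cuts its targets, read 5.73 and 5.69 with DMSO, 6.09 and 5.98 with aFGF and 5.69 and 5.85 with AZD4547. Its 2 aFGF arrays were the highest of the 6. EIF2C2 rose by 0.33 with aFGF (SE 0.08, 1.25-fold, adjusted p 0.0123) and differed by -0.26 with AZD4547 relative to aFGF (SE 0.08, adjusted p 0.0238). EIF2C1 and EIF2C3 differed by -0.20 and 0.07 in the inhibitor comparison and were not called.

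Genes that work with the initiation factors were counted in 5 lists and beside the cytosolic ribosomal proteins. In the order below, 33.3%, 35.3%, 25%, 28.6% and 44.4% of the lists were called with aFGF over DMSO. All genes stood at 15.6% and the brighter genes, tested alone, at 34.3%. With AZD4547 over aFGF the lists stood at 54.2%, 58.8%, 25%, 50% and 66.7%, against 25.7% and 50.8%. With AZD4547 over DMSO they stood at 12.5%, 5.88%, 0%, 21.4% and 0%, against 4.68% and 13.8%. The shares of the lists come from the fit of all 19040 genes, and those of the brighter genes from a fit of these alone. That fit called more genes, 1311 against 892 for AZD4547 with aFGF over DMSO, so the lists and the brighter genes are not set like for like. The differences between these shares were not tested. Of 24 partners of initiation, 5 were called higher and 3 lower with aFGF over DMSO, 5 higher and 8 lower with AZD4547 over aFGF, and 1 higher and 2 lower with AZD4547 over DMSO. BZW1, an eIF5 mimic, differed by 0.58 with aFGF (SE 0.05, adjusted p 2.27e-05) and by -0.68 with AZD4547 over aFGF (SE 0.05, adjusted p 2.61e-06). DOHH, which completes hypusine on eIF5A, differed by 0.47 and -0.71 (adjusted p 0.00515 and 0.000159). MKNK1 and MKNK2, kinases that phosphorylate eIF4E, rose by 0.62 and 0.52 with AZD4547 over aFGF (adjusted p 0.000779 and 7.8e-05), and MKNK2 was also higher than with DMSO, by 0.27 (adjusted p 0.0306).

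Of 17 genes of the mTORC1 and S6 kinase axis, 1 was called higher and 5 lower with aFGF, 8 higher and 2 lower with AZD4547 over aFGF, and 1 higher with AZD4547 over DMSO. The median difference with AZD4547 over aFGF was 0.23, against -0.02 over all genes. SESN1 and SESN2, which encode sestrins that restrain mTORC1, differed by -0.59 and -0.56 with aFGF (adjusted p 0.000328 and 0.00109) and by 0.88 and 0.79 with AZD4547 over aFGF (adjusted p 7.3e-06 and 4.07e-05). RPS6KB1, which encodes the S6 kinase that phosphorylates EIF4B, had the opposite order, at 0.47 and -0.47 (adjusted p 0.00056 and 0.00024), while its paralog RPS6KB2 differed by -0.26 and 0.38 (adjusted p 0.0295 and 0.00167). The axis list therefore held genes of both directions, and activators such as MTOR, at 0.27 with AZD4547 over aFGF (adjusted p 0.0166), were among those called higher.

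Of 12 genes that act before or after eIF2 phosphorylation, among them regulators of the kinases, subunits of the eIF2 phosphatase and ATF4 with its targets, 2 were called higher and 1 lower with aFGF, and 0 higher and 3 lower with AZD4547 over aFGF. TRIB3, a target of ATF4, differed by 0.57 with aFGF (adjusted p 0.000558) and by -0.66 with AZD4547 over aFGF (adjusted p 8.24e-05). DDIT3, which encodes CHOP, differed by 0.72 and -0.90 (adjusted p 0.00197 and 0.000189) at mean levels of 2.69 with DMSO, 3.41 with aFGF and 2.51 with AZD4547, near or below the array medians. ASNS, another ATF4 target, was the 1 gene called lower with aFGF, by -0.21 (adjusted p 0.0157). PPP1R15B, a constitutive phosphatase subunit, was called lower with AZD4547 over aFGF with a difference of -0.27 (adjusted p 0.027). None of the 12 was called in limma's fit of AZD4547 over DMSO, where 2 had an unadjusted p under 0.05.

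Of 14 elongation and termination factors, 3 were called higher and 1 lower with aFGF, 2 higher and 5 lower with AZD4547 over aFGF, and 3 lower with AZD4547 over DMSO. ETF1, the release factor that reads stop codons, differed by 0.50 with aFGF (SE 0.05, adjusted p 8.16e-05), by -0.89 with AZD4547 over aFGF (SE 0.05, adjusted p 4.01e-07) and by -0.39 with AZD4547 over DMSO (SE 0.05, adjusted p 0.00213). EEF1E1, a component of the multisynthetase complex, differed by 0.40, -0.63 and -0.23 (adjusted p 0.000314, 4.73e-06 and 0.0275).

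Of 9 mitochondrial translation factors, 2 were called higher and 2 lower with aFGF, and 2 higher and 4 lower with AZD4547 over aFGF. The mitochondrial elongation factor gene GFM1 differed by -0.38 with AZD4547 over aFGF (adjusted p 0.000785) and GFM2, which encodes a mitochondrial ribosome recycling factor, by 0.40 (adjusted p 0.000536), so these paralogs were called in opposite directions. None of the 9 was called in limma's fit of AZD4547 over DMSO, where 2 had an unadjusted p under 0.05.

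The cytosolic ribosomal proteins were called in smaller shares than all genes, a difference that was not tested. Of 82 genes, 2 were called higher and 1 lower with aFGF (3.66%, against 15.6% of all genes), 1 higher and 4 lower with AZD4547 over aFGF (6.1%, against 25.7%), and 1 lower with AZD4547 over DMSO (1.22%, against 4.68%). RPL35A differed by 0.28, -0.70 and -0.42 in the 3 comparisons (adjusted p 0.00575, 4.7e-06 and 0.00237). The other called genes were picked out for their values and are the paralogs RPL7L1, RPL22L1 and RPL26L1, all lower with AZD4547 over aFGF, and RPS27L, which was higher there by 0.32 (adjusted p 0.000538). The median difference of the 82 genes was -0.02 with AZD4547 over aFGF, equal to that over all genes at this rounding, against -0.10 for the 54 EIF genes, and the difference between both lists was not tested.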

How the data were processed

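Total RNA of 6 AN3-CA cultures was measured on Affymetrix arrays from 500 ng of RNA per labelling. Per the submitters' processing notes the authors used RMA (background correction, quantile normalization and summary of probes), with no version given. The authors' deposited intensity per probe set is linear (log2 was also possible in planning), so log2 of it was taken with no pseudocount. The authors also deposited a ratio of each aFGF-treated group over DMSO with its p-value, from a test that the labels and headers do not name.

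Symbols were updated through Entrez identifiers to RefSeq. Of 49293 probe sets, 47340 had 1 symbol, and each of 19040 genes was read from its brightest one. limma 3.58.1 (R 4.3.3, eBayes with an intensity trend) fitted 1 mean per group over the 6 arrays, and genes were called where the Benjamini-Hochberg adjusted p was under 0.05. With 2 arrays per group their number limits the precision. The p-values use the spread between these cultures, pooled over the 3 groups and drawn toward a trend over all genes. They therefore rest partly on other genes and on groups outside the comparison. Promoters came from RefSeq, GRCh38.p14.

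Members and lists were chosen with earlier results of these data known. All members could be named by role. Full values went to at most 12 per comparison, the largest called changes whose groups did not overlap and those against the majority, and up to 4 called genes per partner list. The alternatives were the variance trend, the brighter genes, scaling, the pseudocount, the probe set choice, the deposited table, the replicate block, the samples fitted, single arrays left out and, chosen after seeing the data, the Argonautes left out.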

Additional observations from a re-analysis of the deposited data

How the results depend on the processing

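The median differences of the 54 genes moved by less than the spread between replicates under each alternative run. That spread, the pooled SD between replicate arrays of the median level of the 54 genes, was 0.0538. It is larger than the median for AZD4547 with aFGF over DMSO, -0.0452, so this yardstick cannot show that median to be stable. Medians that shrank when a DMSO array was left out are given above. For aFGF over DMSO, 8 genes were called in the fit reported first, 3 without the intensity trend and 13 among the brighter genes, and 2 to 15 with single arrays left out. For AZD4547 with aFGF over aFGF the counts were 20, 12 without the trend, and 10 to 28 with single arrays left out. For AZD4547 with aFGF over DMSO they were 4, 0 in limma's fit without the trend (8 at an unadjusted p under 0.05), 9 among the brighter genes, 2 with each array centred on its median, 1 when all probe sets were tested, 0 in limma's fit of only the 2 groups compared (16 unadjusted), and 0 to 15 with single arrays left out. Without the trend, 13 genes of the partner lists were called in place of 28 for aFGF over DMSO, and 0 in place of 8 for AZD4547 with aFGF over DMSO. The cause of these shifts was not tested. EIF2AK4 turned from 0.38 to -0.0327 (adjusted p 0.898) in the inhibitor comparison when probe sets ending in _x_at were left out, which leaves only its dim probe set. With the replicate block, the replicate number as a term, 11, 22 and 6 genes were called in the 3 comparisons. The correlations of deviations of replicates with the same number were -0.007 for DMSO with aFGF, 0.091 for DMSO with AZD4547 and -0.042 for aFGF with AZD4547 across genes, which are not independent, and 0.0645, 0.137 and -0.0616 across the brighter genes. Only DMSO with AZD4547 passed 0.1, and that across the brighter genes. With 2 arrays per group, these correlations cannot show whether cultures of the same number were handled together. The labels name no pairing, and the fit reported first left the replicate number out. The other deposited table gave identical values. With 2 arrays per group and no detection calls, small changes and genes near the array medians are the least certain.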

Other observations

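Some probe sets of initiation factors carry the symbol of another gene as well and were in none of the counts. The 2 brightest of those listed for EIF3C and EIF3CL, near-identical genes of an eIF3 core subunit, differed with AZD4547 over aFGF by -0.21 (SE 0.06, adjusted p 0.0343, limma over all probe sets) and by -0.14 (SE 0.10, adjusted p 0.374). Signals of the 2 genes cannot be told apart on these probes. With aFGF over DMSO the same probe sets differed by 0.14 and 0.21 and were not called.

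The gene of eIF2D, a tRNA delivery factor that works without eIF2, was listed as LGTN. Its brighter probe set read 5.55 and 5.56 with DMSO, 5.47 and 5.52 with aFGF and 5.75 and 5.73 with AZD4547. The AZD4547 arrays were the highest, with a difference of 0.25 over aFGF (SE 0.07, adjusted p 0.0278) and of 0.19 over DMSO (adjusted p 0.214).

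Both probe sets listed for EIF4A2 and the small nucleolar RNA gene SNORA4 were called lower with AZD4547 over aFGF, at -0.42 (adjusted p 0.012) and -0.47 (adjusted p 0.021), whereas those listed for EIF4A2 and SNORA63 differed by -0.20 and -0.10 and were not called. EIF4A2 had 4 probe sets with 1 symbol. The brightest differed by 0.01 and the others by -0.16, 0.09 and 0.08, and none of them was called.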
